A study of Mus musculus with 6 samples.

Results

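The Schlafen genes are a family of growth-regulating genes of the mouse, and 7 of them (Slfn1, Slfn2, Slfn3, Slfn4, Slfn5, Slfn8 and Slfn9) were looked up by symbol in a table of 26082 differently named entries. Slfn1, Slfn2 and Slfn5, 3 of the 7, had an entry of their own. The other 4 stood in joined entries, Slfn3 with Slfn4 and Slfn8 with Slfn9, so the 7 genes were measured as 5 entries. RNA-Seq was done on leukemia cells from the bone marrow of 6 C57BL/6J mice. In all 6 mice the leukemia carried the transduced MLL-AF9 fusion gene, and the labels name no other altered gene. The vehicle group was 3 mice that received the carrier alone, and the DS-5272 group was 3 mice that received 80 mg/kg of DS-5272 by mouth, an inhibitor of the binding of MDM2 to p53. Cells were taken 24 h after dosing in both groups. The leukemia had been started by retroviral transduction of c-Kit+ bone marrow progenitors and passed from mouse to mouse before injection into non-irradiated recipients, so the 6 mice are hosts of an already passaged leukemia and not 6 independently arisen ones. Age and sex of the mice, and the gate by which the leukemia cells of these samples were isolated, are not given in the sources used here.

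Schlafen genes were first described in thymocytes, where some of them slow growth, and many are induced by interferons and by bacterial products in myeloid cells. The mouse genes are sorted by length into a short subgroup (I, Slfn1 and Slfn2), an intermediate subgroup (II, Slfn3 and Slfn4) and a long subgroup with a helicase-like part (III, Slfn5, Slfn8 and Slfn9). Slfn2 keeps T cells and monocytes quiescent and shields transfer RNA from cleavage, Slfn4 is expressed in myeloid cells, and members of the long subgroup act on RNA or enter the nucleus.

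The family lies in 1 cluster on chromosome 11, chr11:82951349-83286726 in GRCm38, which is 335 kb long and holds 9 Schlafen genes in the GENCODE annotation. In the order of their start positions these are Slfn5, Slfn9, Slfn8, the pseudogene Slfn10-ps, Slfn2, Slfn1, Slfn4, Slfn3 and Slfn14. Coding lengths were 1011 bases for Slfn1, 1134 for Slfn2, 1920 for Slfn3, 1806 for Slfn4, 2652 for Slfn5 and 2730 for both Slfn8 and Slfn9. The genes that share an entry are the most alike in sequence: the coding sequences of Slfn3 and Slfn4 were identical at 91.6% of 1779 aligned bases, and those of Slfn8 and Slfn9 at 92.7% of 2730. The other pairs were identical at 54.1% (Slfn1 and Slfn9) to 71.5% (Slfn2 and Slfn3) of their aligned bases. Stretches of 100 bases, the length of 1 read, were rarely shared with another annotated gene: 0% of those in the Slfn1 transcript, 0.128% in Slfn2, 4.93% in Slfn3, 0.285% in Slfn4, 6.85% in Slfn5, 3.71% in Slfn8 and 3.90% in Slfn9. In Slfn5 nearly all of them lay in Slfn5os, a gene on the other strand whose exons overlap it. The libraries were strand-specific, and Slfn5os was listed at 0 in all 6 mice, but whether fragments were assigned to genes by strand is not given. How the authors' counting split fragments between Slfn3 and Slfn4, or between Slfn8 and Slfn9, is not given, so their 2 joined values are read as sums over each pair.

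Promoters were read for letters that the members share. RefSeq (GRCm38.p6) gave a promoter of 300 bases, 250 before and 50 after the start, for all 7 members, with 2 starts for Slfn8. Capitals mark the core of the interferon-stimulated response element, GAAANNGAA on either strand, in Slfn5 and Slfn8, and in Slfn1, Slfn2 and Slfn4 a run of 9 bases, ACTTCCTGG, which was found as the longest run that all subgroup I and II promoters share. The promoters are Slfn1 (chr11:83116570-83116869, plus strand), Slfn2 (chr11:83064862-83065161, plus strand), Slfn4 (chr11:83174936-83175235, plus strand), Slfn5 (chr11:82951852-82952151, plus strand) and Slfn8 (chr11:83020761-83021060, minus strand).
Slfn1: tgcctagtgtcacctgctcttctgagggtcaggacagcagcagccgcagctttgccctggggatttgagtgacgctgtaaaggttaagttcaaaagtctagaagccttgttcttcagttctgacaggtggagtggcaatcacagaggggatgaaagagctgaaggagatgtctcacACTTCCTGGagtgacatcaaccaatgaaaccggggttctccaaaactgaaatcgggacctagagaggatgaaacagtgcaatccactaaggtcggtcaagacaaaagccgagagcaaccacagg
Slfn2: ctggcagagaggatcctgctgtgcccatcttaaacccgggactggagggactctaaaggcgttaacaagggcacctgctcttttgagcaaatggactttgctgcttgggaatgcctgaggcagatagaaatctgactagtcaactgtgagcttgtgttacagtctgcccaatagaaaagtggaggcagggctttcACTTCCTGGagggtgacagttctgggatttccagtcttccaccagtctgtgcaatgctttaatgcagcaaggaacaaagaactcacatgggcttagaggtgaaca
Slfn4: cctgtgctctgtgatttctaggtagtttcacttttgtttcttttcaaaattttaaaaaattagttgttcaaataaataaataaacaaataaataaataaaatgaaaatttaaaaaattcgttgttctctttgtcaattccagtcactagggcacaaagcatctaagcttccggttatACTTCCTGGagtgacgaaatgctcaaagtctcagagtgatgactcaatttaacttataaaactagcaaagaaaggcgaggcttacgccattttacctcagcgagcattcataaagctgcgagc
Slfn5: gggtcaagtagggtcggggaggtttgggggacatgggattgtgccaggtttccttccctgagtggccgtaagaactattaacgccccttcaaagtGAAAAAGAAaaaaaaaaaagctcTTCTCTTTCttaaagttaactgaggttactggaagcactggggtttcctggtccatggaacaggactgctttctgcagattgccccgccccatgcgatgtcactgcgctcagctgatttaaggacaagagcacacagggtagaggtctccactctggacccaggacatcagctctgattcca
Slfn8: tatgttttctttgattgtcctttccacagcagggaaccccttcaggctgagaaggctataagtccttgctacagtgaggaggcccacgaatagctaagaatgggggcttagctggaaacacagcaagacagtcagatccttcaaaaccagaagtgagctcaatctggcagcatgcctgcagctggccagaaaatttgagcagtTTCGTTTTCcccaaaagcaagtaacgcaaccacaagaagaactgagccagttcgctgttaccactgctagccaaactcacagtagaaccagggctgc

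The response element core was present in the promoters of all 3 subgroup III genes. It occurred 2 times in Slfn5, beginning 155 and 132 bases before the start, and once each in Slfn8 and Slfn9, beginning at −44 relative to the start of Slfn9 and at −47 and −135 relative to the first and the second start of Slfn8. None of the subgroup I and II promoters held these letters, and 8.56% of the 32851 promoters of the table did. The promoters of Slfn8 and Slfn9 were identical at 83.4% of 295 aligned bases, with the same match, so they are not separate observations. The run ACTTCCTGG began 74 bases before the start in Slfn1, 55 in Slfn2, 42 in Slfn3 and 73 in Slfn4, always on the gene's strand. It was present in 0.843% of all promoters. This run was searched for after the sequences were seen, without a test. The gamma-activated site TTCNNNGAA and the p53 half-site had no match in the 8 member promoters, against 8.30% and 8.36% of all promoters with 1, and GAGGAA, a form of the Ets core that PU.1 favors, matched in Slfn9 alone, against 28.3%. The shorter Ets core GGAA, counted after the sequences were seen, was in all 8, against 96.0% of all promoters, and the run ACTTCCTGG holds it on the other strand. A match is a description of letters and not of binding.

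Values are in FPKM, fragments scaled to transcript length and to the mapped total, which are scaled for length and so allow levels of different genes to be compared, and they are given in the order of replicates 1, 2 and 3. Slfn1 was low in the vehicle mice, with values of 7.83, 3.87 and 3.29 FPKM, and the DS-5272 mice had 98.2, 72.3 and 139 FPKM. Its lowest DS-5272 mouse was far above its highest vehicle mouse. The mean went from 4.99 ± 2.48 to 103 ± 33.9 FPKM (SD, n = 3 each), a ratio of 20.7. As log2(FPKM + 1), in which the added 1 shrinks changes at low levels, Slfn1 rose by 4.15 (SE 0.33, limma adjusted p = 0.000828), and 8 of the 11130 entries tested had a larger log2 fold change. As estimated from the depth, the Slfn1 values rest on about 630, 250 and 230 fragments in the vehicle mice and on about 3800 to 6100 in the DS-5272 mice.

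Slfn2, the other short gene, was among the more abundant transcripts already with vehicle. It stood at 62.0, 81.8 and 83.4 FPKM in the vehicle mice and at 197, 234 and 365 FPKM in the DS-5272 mice. Vehicle replicate 1 was the lowest mouse and DS-5272 replicate 3 the highest, and the groups did not overlap. The mean went from 75.7 ± 11.9 to 266 ± 88.1 FPKM (SD, n = 3 each), and the log2 rise was 1.76 (SE 0.24, limma adjusted p = 0.00355).

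The joined entry of Slfn3 and Slfn4 held 73.6, 82.1 and 72.0 FPKM in the vehicle mice, the narrowest relative spread of the 5 entries in that group, with a highest value 1.14 times the lowest. It held 296, 264 and 528 FPKM in the DS-5272 mice. The groups did not overlap, and DS-5272 replicate 3 was well above the other 2 treated mice. The mean went from 75.9 ± 5.41 to 363 ± 144 FPKM (SD, n = 3 each), with a log2 rise of 2.17 (SE 0.26, limma adjusted p = 0.0023). Which of the 2 genes carried the rise cannot be told apart from the joined value.

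In the long subgroup, Slfn5 stood at 19.8, 9.83 and 8.28 FPKM in the vehicle mice and at 124, 54.3 and 90.6 FPKM in the DS-5272 mice. Replicate 1 was the highest mouse of both groups, and the groups did not overlap. The mean went from 12.7 ± 6.28 to 89.7 ± 35.0 FPKM (SD, n = 3 each), and Slfn5 rose by 2.75 on the log2 scale (SE 0.39, limma adjusted p = 0.00375). Without DS-5272 replicate 1 the log2 rise of Slfn5 was 2.48.

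The joined entry of Slfn8 and Slfn9 changed least. It held 30.5, 18.3 and 15.7 FPKM in the vehicle mice and 46.9, 27.8 and 41.7 FPKM in the DS-5272 mice. Replicate 1 was again the highest mouse of both groups, and the groups overlapped, since vehicle replicate 1 was above DS-5272 replicate 2. Between mice of the same number it was higher with DS-5272 in all 3 pairs, by 0.61, 0.58 and 1.36 on the log2 scale. The mean went from 21.5 ± 7.89 to 38.8 ± 9.87 FPKM (SD, n = 3 each). The log2 difference of 0.85 (SE 0.28) was just past the threshold, with a limma adjusted p of 0.0475. This call was lost in 10 of 15 refits, among them all 4 rescalings of the table and the fits without vehicle replicate 2 or 3 or without DS-5272 replicate 1 or 3, with adjusted p of 0.0101 to 0.193 over the refits, the lowest with the replicate number as a block. The direction was the same in all 15.

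**Figure D1:**
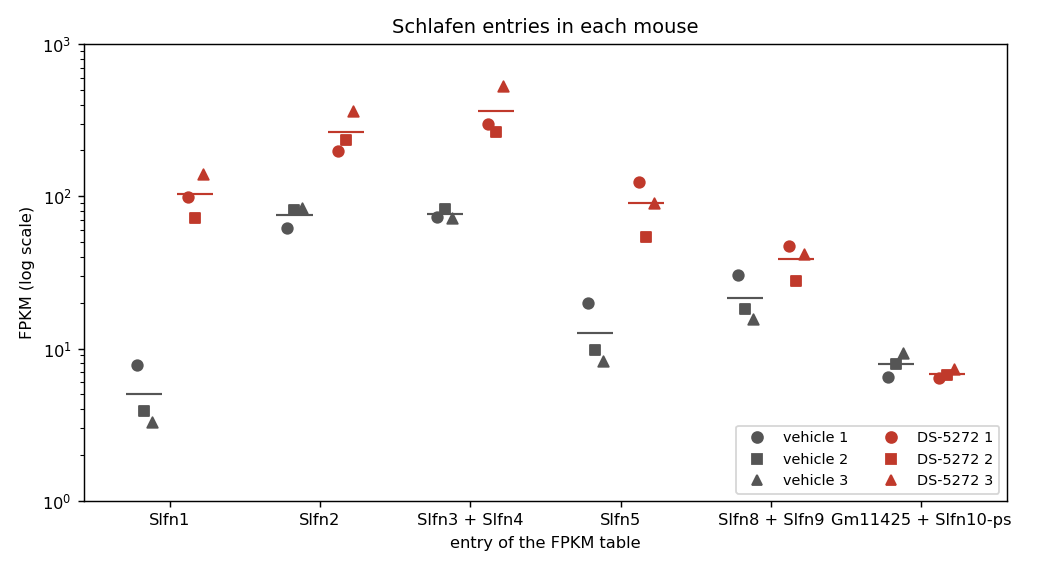
FPKM (log axis) of the 5 Schlafen entries and of the joined entry of Gm11425 and Slfn10-ps in each mouse, with vehicle in grey, DS-5272 in red, the replicate number as the symbol and the group mean as a line. Slfn1 goes from 3.29 to 7.83 FPKM with vehicle to 72.3 to 139 FPKM with DS-5272, and the groups overlap for Slfn8 with Slfn9.

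All 5 Schlafen entries were tested, and all 5 were called higher with DS-5272 (limma, adjusted p under 0.05), where 24.2% of all 11130 entries tested were called higher and 22.0% lower. Each of the 5 entries had a vehicle mean of at least 4.99 FPKM, so none passed the minimum mean of 1 FPKM through the DS-5272 group alone. The median log2 fold change was 2.17 over the Schlafen entries and 0.04 over all entries tested, for which the 10th to 90th percentiles ran from −0.75 to 0.99. In 4 of 5 Schlafen entries each DS-5272 mouse was above each vehicle mouse, against 32.1% of all entries, and 4 of 5 were called with a log2 rise of at least 1, against 8.79%. When the table was rescaled to a common total, which shifted the median log2 fold change of all entries to −0.21, Slfn1, Slfn2, Slfn3 with Slfn4, and Slfn5 were still called, and relative to that median the 5 entries were higher by 4.22, 1.71, 2.12, 2.74 and 0.80 in the order of their numbers. The background count changed with the samples and the scaling. It was 1717 entries called higher with a common total and 1623 without vehicle replicate 2, against 2697. In both of these fits 4 Schlafen entries were called higher, against 5. With a common total 32.7% of the calls were higher, against 52.4%.

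Of the remaining Schlafen entries 1 was tested. Slfn10-ps, a pseudogene between Slfn8 and Slfn2 that is joined in the table with Gm11425, stood at 6.50, 7.86 and 9.35 FPKM with vehicle and at 6.36, 6.69 and 7.38 FPKM with DS-5272. The groups overlapped, and the log2 difference of −0.18 (SE 0.14) was not past the threshold (limma adjusted p = 0.332). It was past it, as lower, in the table rescaled to a common total, with an adjusted p of 0.0399, while its adjusted p ran from 0.0399 to 0.761 over all refits. Slfn14, listed under its older symbol, was at 0 in the 3 vehicle mice and at 0.0164, 0.0187 and 0.0113 FPKM in the DS-5272 mice, levels too low to be tested. Slfnl1, a related gene on another chromosome, reached at most 0.0499 FPKM, and Slfn5os was listed at 0 in all 6 mice.

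The genes on either side of the cluster did not move as a block with it. The log2 fold changes of the tested neighbours read here ran from −1.21 (Nle1, a call lost without vehicle replicate 2) to 0.41 (Ap2b1, a call lost in 5 refits).

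**Figure D2:**
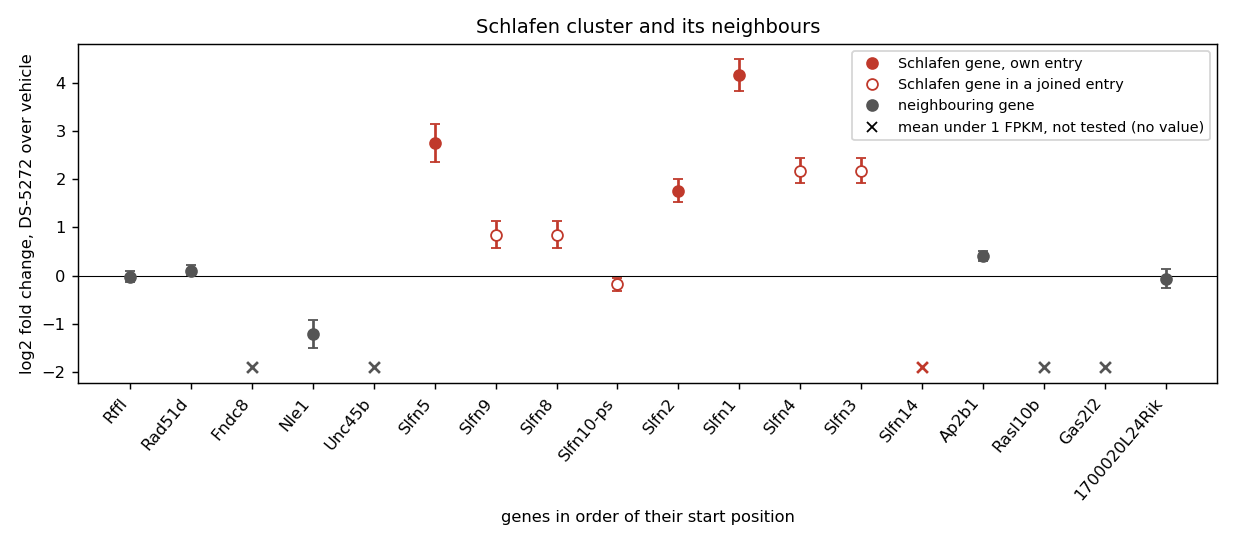
log2 fold change of DS-5272 over vehicle with its SE for the Schlafen genes (red, open where 2 genes share an entry) and protein-coding genes on either side (grey), in the order of their start positions. The members rise by 0.85 to 4.15, Slfn10-ps lies at −0.18, and the neighbours lie between −1.21 and 0.41; crosses mark genes with a mean under 1 FPKM, which have no value.

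The sum over the 5 Schlafen entries was 194, 196 and 183 FPKM in the vehicle mice and 763, 653 and 1164 FPKM in the DS-5272 mice. The vehicle mice lay close together and every treated mouse was above them. The mean sum was 191 ± 7.06 with vehicle and 860 ± 269 FPKM with DS-5272 (SD, n = 3 each), a ratio of 4.51 and a log2 difference of 2.12, with an exact permutation p of 0.1 (two-sided), the smallest that 3 against 3 mice can give. As a share of the whole FPKM table the family went from 0.0364% to 0.0435% in the vehicle mice to 0.113% to 0.176% in the DS-5272 mice.

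**Figure D3:**
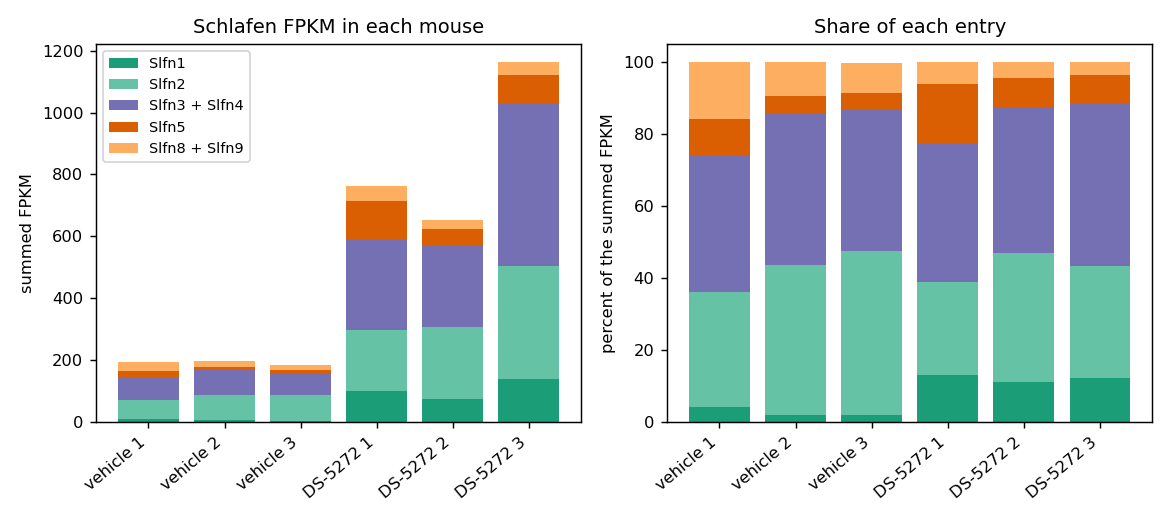
Summed FPKM of the 5 Schlafen entries in each mouse (left) and the percent of that sum held by each entry (right), as stacked bars with 1 bar per mouse. The sum is 183 to 196 FPKM with vehicle and 653 to 1164 FPKM with DS-5272, and the share of Slfn1 is 1.8% to 4.04% with vehicle and 11.1% to 12.9% with DS-5272.

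Within the family the order of levels changed. With vehicle the joined entry of Slfn3 and Slfn4 (75.9 FPKM) and Slfn2 (75.7 FPKM) lay within each other's spread. They were followed by Slfn8 with Slfn9, Slfn5 and Slfn1, and the values of Slfn5 reached into those of Slfn8 with Slfn9, although in each mouse Slfn5 was the lower of the pair. With DS-5272, Slfn1 (103 FPKM) and Slfn5 (89.7 FPKM) both passed Slfn8 with Slfn9 (38.8 FPKM) and lay within each other's spread. The share of Slfn1 in the family sum was 2.61% ± 1.25 with vehicle and 12.0% ± 0.903 with DS-5272, and that of Slfn8 with Slfn9 was 11.2% ± 3.92 and 4.66% ± 1.33 (SD, n = 3 each).

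The ratios between the subgroups overlapped between the groups of mice, although the share of Slfn1 grew within the short one and that of Slfn5 within the long one. The log2 ratio of subgroup I to subgroup II was −0.07, 0.06 and 0.26 with vehicle and 0.00, 0.21 and −0.06 with DS-5272, overlapping throughout (difference −0.03, exact permutation p = 0.8, two-sided). That of subgroup I to subgroup III was 0.46, 1.57 and 1.81 with vehicle and 0.78, 1.89 and 1.92 with DS-5272 (difference 0.25, exact permutation p = 0.5). That of subgroup II to subgroup III was 0.54, 1.51 and 1.55 with vehicle and 0.79, 1.67 and 1.99 with DS-5272 (difference 0.28, exact permutation p = 0.5). In both ratios to subgroup III, replicate 1 was the lowest mouse of either group, and between mice of the same number both were higher with DS-5272, by 0.32, 0.32 and 0.11 for subgroup I and by 0.25, 0.16 and 0.44 for subgroup II, which was not tested in pairs. Adjusted over the 3 ratios, the p-values were 0.8, 0.75 and 0.75.

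The mice of 1 group also differed from each other. Among the vehicle mice replicate 1 had the highest Slfn1, Slfn5 and Slfn8 with Slfn9, and the lowest Slfn2. Of the 22 tested entries of a list of interferon-stimulated genes, 21 were also highest in vehicle replicate 1, as were 41.2% of all entries tested. Of the 22 tested entries of a list of neutrophil and monocyte maturation genes, 17 were lowest there, as were 42.8% of all entries. Among the DS-5272 mice, replicate 3 had the highest Slfn1, Slfn2 and Slfn3 with Slfn4, and so had 18 of the 22 maturation entries and 48.7% of all entries, while replicate 1 had the highest Slfn5 and Slfn8 with Slfn9, and so had 14 of the 22 interferon-stimulated entries and 27.7% of all entries.

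The genes whose profile over the 6 mice was nearest to each Schlafen entry were found by the root mean square difference of mean-centred log2(FPKM + 1) values. Nearest to Slfn1 were Clec4n, a C-type lectin receptor for fungal sugars (0.21), and the interferon-inducible genes Ifi27l2a (0.31) and Ifi204 (0.33). Nearest to Slfn5 were Zbp1, a sensor of Z-form nucleic acid (0.16), the scavenger receptor gene Stab1 (0.17) and Isg15, a ubiquitin-like modifier (0.18). Slfn8 with Slfn9 had the RNA helicase gene Mov10 (0.06), the glycosyltransferase gene Ogt (0.07) and the joined entry of H60b and Raet1d, ligands of an NK cell receptor (0.11, limma adjusted p = 0.0254, over the threshold in 6 refits). Like that entry these genes lay near the threshold: Mov10 and Ogt had limma adjusted p of 0.0585 and 0.059, and of 0.00693 and 0.0189 with the replicate number as a block, and both were also past it without vehicle replicate 1 or DS-5272 replicate 2. Nearest to Slfn2 were Ehd1 (0.05), which acts in endocytic recycling, Rasgrp4 (0.06), a Ras activator of myeloid cells, and Mocos (0.07). Slfn3 with Slfn4 had the cytokine subunit gene Il27 (0.11), Arhgap24 (0.11) and the receptor kinase gene Grk5 (0.13). Among the Schlafen entries themselves the nearest were Slfn2 and Slfn3 with Slfn4 (0.28), and the farthest Slfn1 and Slfn8 with Slfn9 (1.66).

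**Figure D4:**
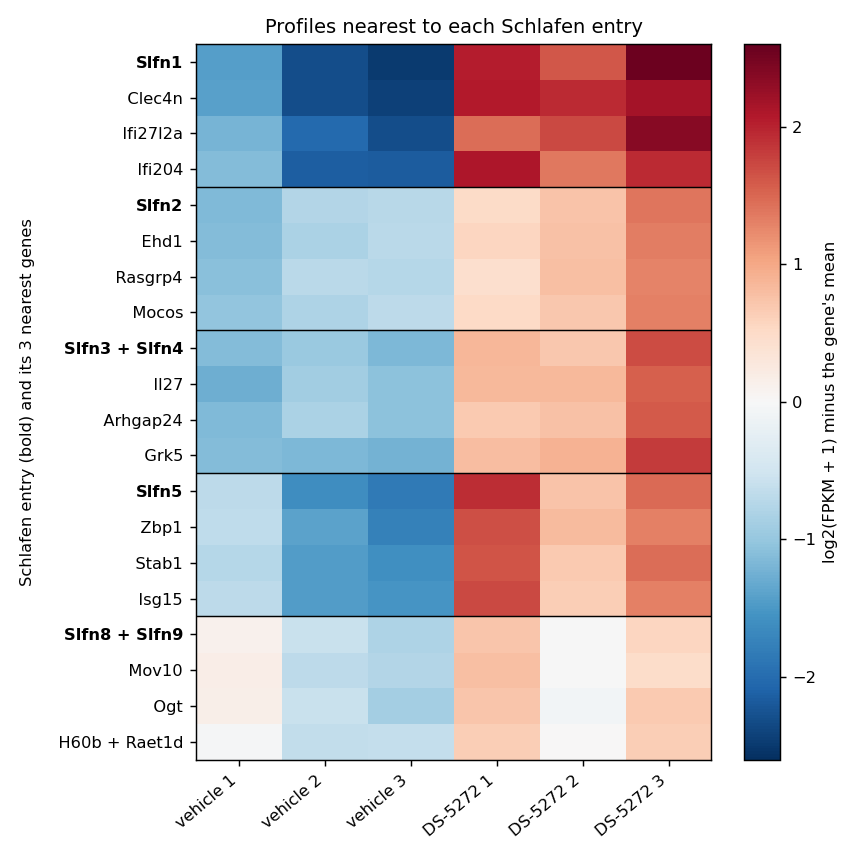
log2(FPKM + 1) minus the gene's mean over the 6 mice (color) for each Schlafen entry (bold) and the 3 tested genes nearest to it, with 1 column per mouse. The blocks of Slfn5 and of Slfn8 with Slfn9 are highest in DS-5272 replicate 1 in nearly every row, and that of Slfn2 is highest in DS-5272 replicate 3.

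Since many Schlafen genes respond to interferons, the genes of that pathway were read beside them. The ligands were barely detected: 13 of 18 type I interferon genes were at 0 in all 6 mice, and their sum was 0.115, 0.143 and 0.224 FPKM with vehicle and 0.31, 0.158 and 0.283 FPKM with DS-5272. Within that sum Ifnb1 was at 0 in the vehicle mice and at 0.187, 0.107 and 0.0648 FPKM in the DS-5272 mice, while Ifnz had a mean of 0.15 with vehicle and 0.0799 FPKM with DS-5272, and neither was high enough to be tested. Ifng, the type II ligand, stood at 0.041, 0.0254 and 0.0232 FPKM with vehicle and at 0.0824, 0.157 and 0.304 FPKM with DS-5272, below the level that was tested. The counts of this pathway stand against 24.2% of all entries tested that were called higher, and 3367 of 11130 with the replicate number as a block. Of 12 receptor and signal chain genes 11 rose (9 of them in every refit, and all 12 with the replicate number as a block), with a median log2 fold change of 0.96 over the 12, led by the transcription factor genes Irf7 (2.39), Stat2 (1.39) and Irf1 (1.29). Of 22 tested interferon-stimulated entries all 22 rose (19 of them in every refit), with a median of 1.79 and a range of 0.66 to 2.65, led by the RNA sensor gene Oas3 (2.65), Zbp1 (2.54) and the antiviral GTPase gene Mx1 (2.50). Ifit3 and Eif2ak2, joined with genes outside the list and so not among the 22, had log2 fold changes of 3.13 (limma adjusted p = 0.00443) and 0.53 (0.128, and 0.017 with the block). The log2 fold change of Slfn5 (2.75) was above that of each of the 22 and below that of the Ifit3 entry, that of Slfn1 (4.15) was above all of these, that of Slfn2 (1.76) was near their median, and that of Slfn8 with Slfn9 (0.85) was near their lower end. Among 7 brakes of interferon signalling 5 rose (4 of them in every refit), again against 24.2%: Socs3 (2.21), Usp18 (2.12), Ptpn6 (1.11), Irf2 (0.95) and Socs1 (0.40), the last with an adjusted p of 0.0457 that was over the threshold in 11 refits and ran from 0.0295 to 0.258. Pias1 (0.22) and Ptpn2 (−0.01) were not past the threshold, except Pias1 as higher without DS-5272 replicate 1 (adjusted p = 0.0351) and Ptpn2 as lower with a common total (0.0478).

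Schlafen genes also change as myeloid cells mature. Of the 22 maturation entries 17 rose (14 of them in every refit, and 19 with the replicate number as a block) against 24.2% of all entries (3367 of 11130 with the block), with a median log2 fold change of 2.36, led by the protease gene Mmp9 (4.32), S100a9 (4.08), which encodes a part of calprotectin, and the formyl peptide receptor gene Fpr1 (3.90). The 17 include an entry with a vehicle mean of 0.207 FPKM, which passed the filter of 1 FPKM through the DS-5272 group alone. S100a9 missed the threshold without DS-5272 replicate 2 or 3, with adjusted p of 0.000501 to 0.0655 over the refits. The summed level of the list was 1689, 3303 and 4004 FPKM with vehicle and 7412, 15109 and 24504 FPKM with DS-5272, and Lcn2, which encodes an iron-scavenging protein of neutrophils, had the highest mean over the 6 mice, though not within either group. The log2 fold changes of these entries ran from −0.39 to 4.32, and those of all 5 Schlafen entries (0.85 to 4.15) lay within that range. In these bulk samples more cells of a maturation stage and more Schlafen RNA per cell cannot be told apart, and the part of maturation in the Schlafen levels was not tested.

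**Figure D5:**
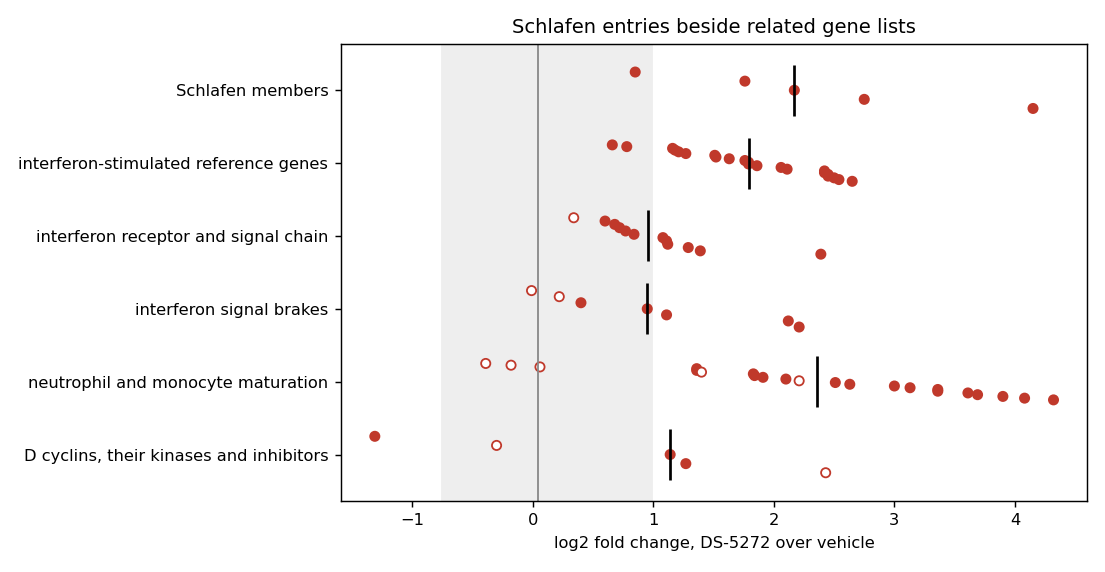
log2 fold change of DS-5272 over vehicle (horizontal axis) for the tested entries of the Schlafen family and of 5 related lists, filled where limma's adjusted p was under 0.05, with the list's median as a black line. The grey band spans the 10th to 90th percentiles of all 11130 entries tested (−0.75 to 0.99) and the grey line their median (0.04); 4 of the 5 Schlafen entries lie to the right of the band.

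Because Slfn2 is known to shield transfer RNA, genes of transfer RNA cleavage and protection were read beside it. The nuclease gene Ang, joined in the table with Rnase4, rose by 1.05 on the log2 scale, and Rnh1, which encodes an inhibitor of that nuclease, rose by 0.76. The transfer RNA methyltransferase genes Nsun2 and Trdmt1 fell by 1.06 and fell by 0.60, and Elac2, which trims the ends of transfer RNA, fell by 0.65. Trdmt1 and Elac2 missed the threshold without vehicle replicate 2 or 3, with adjusted p up to 0.0656 and 0.0697. Elac1 (0.34) was past it without DS-5272 replicate 2 alone (0.0175).

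Slfn1 and Slfn2 are known as brakes of the cell cycle in lymphocytes, where D cyclins are among the genes that Slfn1 holds down. Ccnd1 stood at 0.523, 0.478 and 0.484 FPKM with vehicle and at 2.53, 0.72 and 0.684 FPKM with DS-5272, with a mean too low to be tested, and Ccnd2, also too low, stood at 0.0694, 0.0275 and 0.061 FPKM with vehicle and at 1.22, 0.501 and 0.544 FPKM with DS-5272. For both every DS-5272 mouse was above every vehicle mouse, as for 32.1% of all entries tested. The share among entries too low to be tested is not given here. Ccnd3, the D cyclin with the highest level, rose by 1.27 (limma adjusted p = 0.00124), the kinase inhibitor gene Cdkn1b rose by 1.14, with an adjusted p of 0.0163 and of 0.0548 without vehicle replicate 1, and the kinase gene Cdk4 fell by 1.31. Cdkn1a, the p53-induced kinase inhibitor gene, stood at 14.8, 28.1 and 25.5 FPKM with vehicle and at 32.3, 117 and 485 FPKM with DS-5272. Replicate 3, which had the highest Slfn1 and Slfn2 of the treated mice, was also the highest for Cdkn1a, as it was for 48.7% of all entries. Replicate 1, which had the highest Slfn5 and Slfn8 with Slfn9 of the treated mice, was the lowest of them for Cdkn1a. The log2 fold change of Cdkn1a was 2.43. It was past the threshold with the replicate number as a block (limma adjusted p = 0.0137) and not without it (0.0611). That of Cdk6, −0.30, was likewise (0.0314 and 0.0988). Without DS-5272 replicate 1 both were past it (0.0109 and 0.0321), and Cdk6 also after quantile normalization (0.0356). Of the 5 tested entries of this list, 2 rose and 1 fell, where 24.2% of all entries rose and 22.0% fell. With the block 3 rose and 2 fell, where 3367 of 11130 entries rose and 2771 fell. The median log2 fold change of the 5 was 1.14.

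Markers of other bone marrow cells were read in the same samples, since the samples are labelled as bone marrow cells. The T cell list had 11 of 14 genes in the table with a summed level of 2.58, 2.14 and 2.74 FPKM with vehicle and 5.09, 2.1 and 2.23 FPKM with DS-5272, and 9 of the 11 were under 1 FPKM in every mouse. Its most abundant gene over the 6 mice, Lck, fell by 0.60 (limma adjusted p = 0.0294). That call was lost in 5 of the 6 fits without 1 mouse. Of the 11 genes, 6, each too low to be tested, were higher in every DS-5272 mouse than in any vehicle mouse. Of all entries tested 32.1% were, and the share among entries too low to be tested is not given here. The 11 NK cell genes summed to 1.99, 1.65 and 3.01 FPKM with vehicle and to 5.16, 3.49 and 4.54 FPKM with DS-5272 (most abundant over the 6 mice Nkg7), and the 7 megakaryocyte genes of 8 to 3.03, 2.94 and 3.16 FPKM with vehicle and to 8.7, 6.53 and 6.22 FPKM with DS-5272. Both sums were higher in every treated mouse than in any vehicle mouse. Nkg7 itself was not past the threshold (log2 fold change −0.08, limma adjusted p = 0.743), and its groups overlapped. Of the 11 NK cell genes 9 were under 1 FPKM in every mouse. Of the 11, 7, each too low to be tested, were higher in every DS-5272 mouse than in any vehicle mouse, against 32.1% of all entries tested. Itga2b, the most abundant megakaryocyte gene over the 6 mice, had a limma adjusted p of 0.0591, of 0.0249 with the replicate number as a block and of 0.0425 without the trend. Its vehicle mean was 0.805 FPKM, so it passed the filter of 1 FPKM through the DS-5272 group alone. The 8 B cell genes (most abundant Cd79b) summed to 5.1, 5.15 and 4.44 FPKM with vehicle and to 7.22, 4.7 and 3.86 FPKM with DS-5272, which overlapped. The 8 plasmacytoid dendritic cell genes (most abundant Cd300c, with Klk1 at 0 in every mouse) summed to 1.04, 1.49 and 1.14 FPKM with vehicle and to 2.51, 1.7 and 3.67 FPKM with DS-5272, which did not. Most of that sum was Cd300c, at 1.54, 1.45 and 3.29 FPKM with DS-5272. Its log2 fold change of 0.57 was not past the threshold (limma adjusted p = 0.102). The other 7 genes were under 1 FPKM in every mouse. The part of these cells in the Schlafen levels was not tested.

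Most of the tested macrophage and erythroid markers stood out in DS-5272 replicate 1, the mouse with the highest Slfn5. Among the DS-5272 mice, 11 of 12 macrophage and 3 of 4 tested erythroid entries were highest there, as were 27.7% of all entries. The other macrophage entry, Adgre1, was lowest there (59.8 FPKM, against 79.1 and 116 in replicates 2 and 3). The 12 bone marrow macrophage genes, all detected, summed to 77.4, 105 and 136 FPKM with vehicle and to 481, 203 and 263 FPKM with DS-5272. Of the 12, 4 rose, where 24.2% of all entries tested did. With the replicate number as a block 6 of 12 rose, where 3367 of 11130 entries did. Several of the 12 passed the filter of 1 FPKM through the DS-5272 group alone. Among these was a gene called with the block alone (vehicle mean 0.179 FPKM). The 4 called without the block were Adgre1 (2.05 on the log2 scale) and the complement genes C1qa, C1qb and C1qc (2.52 to 2.99). C1qa was over the threshold without vehicle replicate 1 or 2. The most abundant gene of the list, Vcam1 (0.74), was not past the threshold and its groups overlapped. The 8 erythroid genes of 10 with an entry of their own summed to 18.2, 22.2 and 22.1 FPKM with vehicle. With DS-5272 their sum was 156, 41.0 and 18.8 FPKM. Of the 4 tested, 2 rose and 1 fell, where 24.2% and 22.0% of all entries did. A gene that rose and the gene not called had vehicle means of 0.564 and 0.993 FPKM. They passed the filter of 1 FPKM through the DS-5272 group alone. A joined entry of beta-globin genes, Hbb-bs (as Beta-s) with Hbb-b1, is not in the erythroid sum or count. It stood at 5.26, 2.21 and 1.01 FPKM with vehicle and at 138, 34.7 and 18.6 FPKM with DS-5272, without overlap, and rose by 3.74 (limma adjusted p = 0.00887). Of the 8, the most abundant over the 6 mice, Hba-a1, stood at 2.39, 1.05 and 0.598 FPKM with vehicle and at 84.2, 14.7 and 7.07 FPKM with DS-5272, and it rose by 3.31 and missed the threshold without vehicle replicate 2 or 3 (adjusted p of 0.00272 to 0.0575). Most of the vehicle sum was Tfrc, the transferrin receptor gene, with a mean of 17.5 FPKM there, which fell by 0.86 (limma adjusted p = 0.0413, over the threshold in 5 refits). Without DS-5272 replicate 1, Slfn1, Slfn2, Slfn3 with Slfn4, and Slfn5 were still called higher, with log2 rises of 4.16, 1.95, 2.29 and 2.48. Slfn8 with Slfn9 was not called in that fit. In 8 of the 12 macrophage genes every DS-5272 mouse was above every vehicle mouse, as in 32.1% of all entries tested. Leaving out 1 mouse therefore does not remove that difference. The methods describe lysis of red blood cells and sorting for flow cytometry, and GFP+ leukemia cells were collected for other assays. Whether these RNA samples went through the same steps is not given in the sources used here. The part of macrophages and erythroid cells in the Schlafen levels was not tested. The identity of the leukemia was read from 14 genes, 12 of them in entries of their own, which summed to 5111, 5448 and 6051 FPKM with vehicle and to 3944, 3910 and 4232 FPKM with DS-5272. Of these 12 entries 4 rose and 5 fell, 7 of the 9 in every refit, with log2 fold changes of −5.07 to 2.1, where 24.2% and 22.0% of all entries did. Of the 4 that rose, Itgam and Csf1r are also among the maturation entries. The most abundant over the 6 mice was Ctsg, a granule protease gene, which fell by 0.94 (limma adjusted p = 0.0307), a call lost in 5 refits. The 3 not called were Meis1 (0.24, limma adjusted p = 0.31), Pbx3 (0.10, 0.474) and Cebpa (−0.38, 0.0766, past the threshold in 5 refits). Hoxa9 and Hoxa10, joined with Mir196b and not in the sum or counts, differed by −0.23 (limma adjusted p = 0.205, past it in 2 refits).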

How the data were processed

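The authors trimmed read pairs with cutadapt 1.8.1, aligned them to GRCm38 transcripts with TopHat2 2.1.1 and computed the deposited FPKM values with Cufflinks 2.2.1, so length and library size were divided out before deposit. Analysis used Python 3.11.15 (pandas 2.3.3, Biopython 1.88), with promoters and starts from RefSeq and genes and transcripts from GENCODE M21. Entries of 1 name were summed. A joined entry was used where all its genes belonged to the list, and left out of list counts otherwise. Entries with a mean of at least 1 FPKM (11130 of 26082) were compared on log2(FPKM + 1) with limma 3.58.1 (R 4.3.3, eBayes with trend, two-sided, Benjamini-Hochberg over all of them, threshold 0.05), after a test on simulated data. Family sums and ratios were compared by exact permutation (scipy 1.17.1). The members and lists were chosen with earlier results of these data known, and the shared run of 9 bases was looked for after the sequences were seen. Genes were named by rule: all Schlafen entries, the 3 largest changes past the threshold in a list or all genes of a list of up to 8, the marker with the highest mean over the 6 mice and markers at 0, the 3 nearest profiles of each entry, and up to 5 neighbouring genes on each side of the cluster. Tfrc, Ifnb1, Ifnz, C1qa, C1qb, C1qc, Adgre1, Itgam, Csf1r and the joined entries of Ifit3, Eif2ak2 and Hbb-bs were named after their values were seen. So were Meis1, Pbx3, Cebpa and the joined entry of Hoxa9 and Hoxa10. Items withheld for evaluation are not reported here.

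Of 75 named entries that are 1 annotated gene in GENCODE, 28 have an exon that overlaps another gene, and without stated strand use their values can include it. Meis1, Pbx3 and Cebpa are not among the 75. Depth was estimated from the step that 1 fragment adds to genes under 0.15 FPKM and from 343 single-transcript genes over 1500 bases long, as 43200000, 34900000 and 38300000 fragments in vehicle replicates 1 to 3 and 32300000, 28200000 and 23300000 in DS-5272 replicates 1 to 3. It gives the scale alone, and no counting interval was derived. Replicate numbers were checked as pairing: deviations from the group means of samples numbered 1, 2 and 3 correlated over genes by 0.66, 0.21 and 0.43, each over 0.1, and those of differently numbered samples by −0.58 to 0.34. The labels give no source for a pairing. Results are from the unblocked fit, with the blocked value added where it changed the call of a named gene or a list count.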

Additional observations from a re-analysis of the deposited data

How the results depend on the processing

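Slfn1, Slfn2, Slfn3 with Slfn4, and Slfn5 were called higher in all 15 refits, with log2 rises of 3.91 to 4.46, 1.46 to 1.95, 1.87 to 2.37 and 2.48 to 3.10 and adjusted p of at most 0.00819, 0.0193, 0.015 and 0.0217. The refits left out 1 mouse at a time, added 0.1 in place of 1 before the logarithm, dropped the filter or raised it to 5 FPKM, rescaled the table to its total, upper quartile or median ratio, used quantiles, added the replicate block, or dropped the trend. Slfn8 with Slfn9 was past the threshold in 5 of them, so 4 or 5 Schlafen entries were called. Joining Slfn3 with Slfn4 and Slfn8 with Slfn9 was not run as an alternative, because the table holds them joined.

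Of all entries tested, 2697 were called higher and 2451 lower. When the log2 fold change also had to reach 1 these were 978 and 621, fewer by the added condition. With a common total 1717 were called higher and 3536 lower. That rescaling shifted the median log2 fold change of all entries from 0.04 to −0.21, and why the FPKM totals of the mice differed was not tested. Leaving out 1 mouse gave 1623 to 2934 higher and 1389 to 2432 lower, and why was not tested. With the replicate block 3367 were called higher and 2771 lower, all 5 Schlafen entries among the former, and of the named genes the block changed the calls of Cdkn1a, Cdk6, Itga2b, Mov10, Ogt and the joined entry of Eif2ak2 and no other.

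The log2 difference of the family sum was 1.86 to 2.13 over the rescalings and the other pseudocount and 1.88 to 2.30 with 1 mouse left out. The subgroup differences changed sign with 1 mouse left out (I to II −0.12 to 0.06, I to III −0.16 to 0.62, II to III −0.05 to 0.63), so their direction depends on single mice, although both differences from subgroup III had 1 sign in every pair of mice of the same number. With 3 mice a group and no fragment counts, small differences between members were not detectable, and members in joined entries could not be read singly.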

Other observations

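The rise of the Schlafen entries did not extend over the genes next to the cluster on chromosome 11. On the Slfn5 side, Rffl stood at 14.4 to 18.1 FPKM over the 6 mice with a log2 difference of −0.02 and Rad51d at 2.75 to 3.38 FPKM with 0.10, neither past the threshold, while Nle1, a ribosome assembly gene, fell by 1.21 (limma adjusted p = 0.0152, and 0.0575 without vehicle replicate 2). On the Slfn14 side, Ap2b1, an adaptor of endocytosis, rose by 0.41 with an adjusted p of 0.0224 that was over the threshold in 5 refits and ran up to 0.502. The gene 1700020L24Rik differed by −0.06, not past the threshold. Fndc8, Unc45b, Rasl10b and Gas2l2 had means under 1 FPKM and were not tested. With DS-5272, Slfn10-ps inside the cluster and Slfn14 at its end stood below every member.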
